A study of Mus musculus with 16 samples.

Results

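The genes described here are 34 genes of the extracellular matrix (ECM) and of liver fibrosis, chosen by name with earlier results of these data known. They comprise collagens, collagen-binding proteoglycans, matrix glycoproteins, cross-linking enzymes, matrix metalloproteinases (MMPs) and their tissue inhibitors (TIMPs). Genes of TGF-beta signalling and the mesenchymal cytoskeleton genes Acta2 and Vim complete the list. A gene was measured by a transcript cluster, the probe group of the array that reads 1 gene, if the platform annotation assigned that cluster to this gene and to no other. This matched 32 of the 34 genes among 18820 measured genes. Fbn1 had no cluster of its own, and Mfap4 had only a cluster shared with another gene. Ctgf stands under its current symbol Ccn2. An intensity above 20 (log2 4.32) on at least 5 of the 16 arrays was required for a test, which 30 of the 32 genes and 14275 genes in all passed. Lox and Mmp13 did not pass it. Col5a1 and Loxl2 had several clusters, and the cluster of the highest mean stood for the gene.

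The ECM of the liver is a sparse scaffold of fibrillar collagens around the portal tracts and central veins and of basement membrane components along the sinusoids. Hepatic stellate cells and portal fibroblasts make most of its collagen, lysyl oxidases cross-link the fibres, MMPs cut them, and TIMPs hold the MMPs back. In fibrosis, TGF-beta and the matricellular protein CCN2 drive stellate cells to become collagen-producing myofibroblasts that contain smooth muscle actin, and macrophages supply both signals and MMPs.

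Livers came from 16 male C57BL/6J mice killed at 12 months of age, 4 on each of 4 diets begun at 9 weeks. Mice on the control diet (C) and on a medium-fat diet with 25% of energy from fat (MF) ate ad libitum, those under calorie restriction (CR) received 30% less in daily portions, and the intermittent group (INT, written ID in the labels) had weeks of MF without limit in turn with weeks of 40% restriction and was killed in an MF week. Every mouse, mock included, was fasted for 4 h, was given by gavage either the solvent carboxymethyl cellulose (mock) or pirinixic acid, a PPARα agonist named by its WY code in the labels, in that solvent at 160 mg/kg (Wy), fasted for 6 h more, and was sedated with isoflurane, nitrous oxide and oxygen before the liver was frozen. In each diet and treatment 1 mouse belonged to the high and 1 to the low body weight class of that diet, so that every combination of diet, class and treatment is 1 liver and 1 array, named here in the form high C mock. The classes are relative to the diet, since mice were matched by weight within a diet, and the weights themselves were not analysed here. Whole liver was used, in which fewer cells of a type and less RNA per cell cannot be told apart.

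Values are log2 intensities. Array medians of the tested genes were 7.07 to 7.21, and correlations between arrays over all transcript clusters 0.982 to 0.994. The high INT mock and high INT Wy arrays carried another array code prefix than the other 14. Hepatocyte genes were at a high level on every array (Alb 13.35 to 13.51), and the stellate cell genes Lrat (8.85 to 9.97) and Reln (9.27 to 9.76) passed the filter on all 16. Members are described with standard errors (SE) of the fitted model, p-values come from limma with Benjamini-Hochberg adjustment over the 14275 genes, and a gene is called at an adjusted p under 0.05.

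The high MF mock liver stood highest for most members. It held the highest value of 23 of the 30 tested members, while 8.31% of all tested genes had their highest value there. High MF Wy held the highest value of 4 members (Col4a1, Col4a2, Mmp14 and Tgfb1), high C mock of 2 (Col5a1 and Timp3) and low CR mock of 1 (Ccn2). Averaged over the 30 members, the deviation from each gene's mean was 0.51 log2 in high MF mock, 0.31 in high MF Wy, 0.20 in high C mock and 0.11 in high C Wy. The other 12 livers had means from -0.20 (high CR Wy) to -0.01 (low C mock), below those of these 4 mice.

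**Figure D1:**
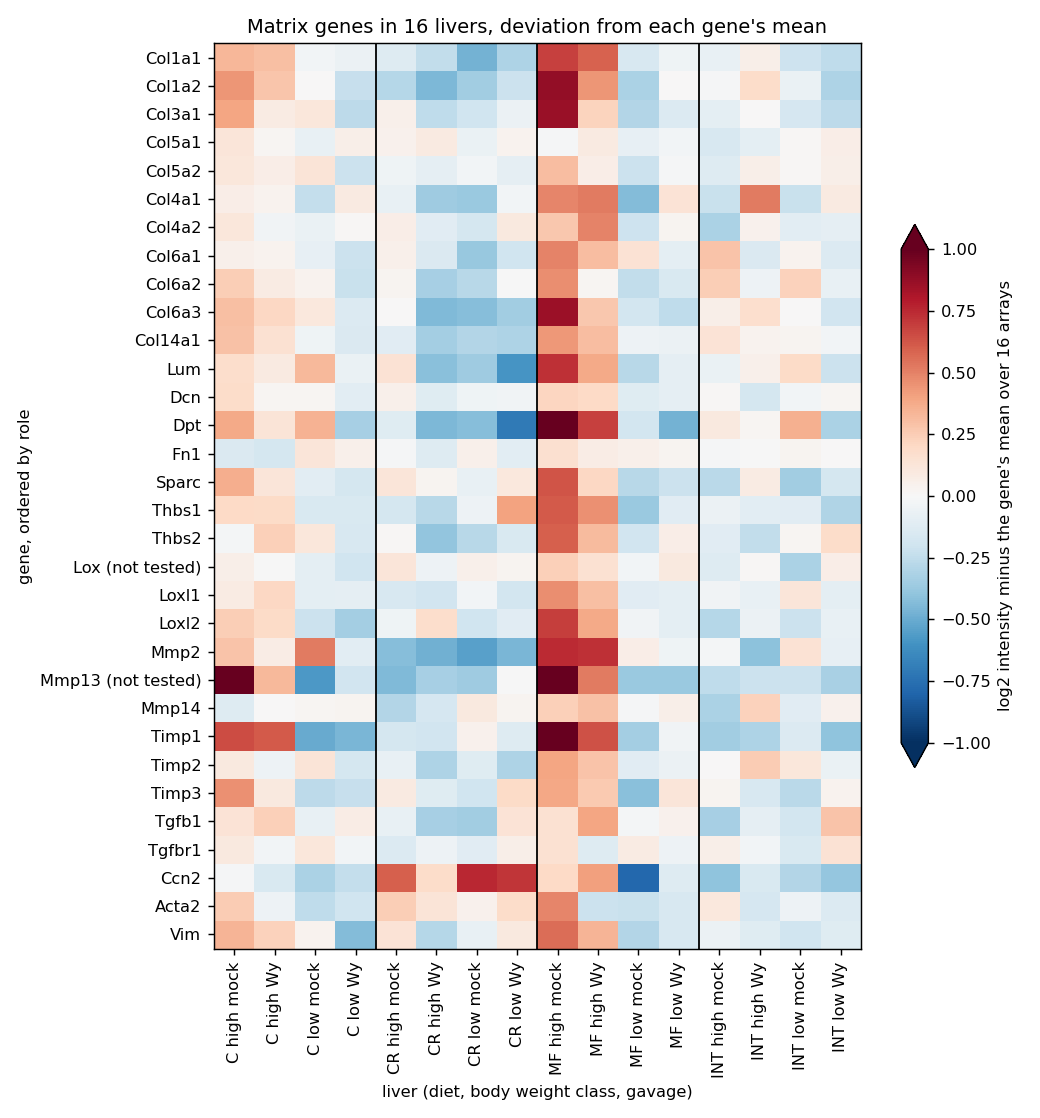
Log2 intensity of the 32 measured matrix genes (rows, ordered by role) in the 16 livers (columns), as the deviation from each gene's mean over 16 arrays, with red above and blue below it and colours saturated at 1. The 2 high MF livers are red in most rows, the 2 high C livers in many, and Ccn2 is red in the CR livers.

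The body weight comparison in C and MF set the 4 high against the 4 low body weight mice of the ad libitum diets. In the high body weight livers 12 of 30 members were higher and none lower: the fibrillar collagens Col1a1, Col1a2 and Col3a1, Col6a3, the fibril-associated collagen Col14a1, the collagen-binding protein Dpt, the glycoproteins Sparc and Thbs1, both tested lysyl oxidases Loxl1 and Loxl2, the inhibitor Timp1, and Vim. Of all tested genes 7.39% were called in this comparison, 4.67% as higher and 2.72% as lower. Since the members were chosen with earlier results of these data known, such shares are a description and no independent support. The log2 change was above 0 for 28 of the 30 members, with a median of 0.37 against -0.00 over all tested genes, and 25 members had an unadjusted p under 0.05, against 23.3% of all genes. Fn1 (-0.08 ± 0.06) and Tgfbr1 (-0.00 ± 0.09) were the 2 members below 0.

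Timp1, an inhibitor of MMPs that is a common marker of liver injury and fibrosis, had the largest difference among the tested members. Its level was 5.26 in high C mock, 5.22 in high C Wy, 5.68 in high MF mock and 5.24 in high MF Wy. In the low body weight livers it was 4.11 in C mock, 4.15 in C Wy, 4.27 in MF mock and 4.57 in MF Wy. All 4 high livers lay above all 4 low ones, and above the 8 CR and INT livers as well, which ran from 4.21 to 4.65. The high to low ratio of Timp1 in C and MF was 2.11-fold (log2 change 1.08 ± 0.10, n = 4 against 4, limma adjusted p = 0.000814). Low C mock, low C Wy and low MF mock lay under the filter level of 4.32, so the size of this ratio is uncertain. The other tested inhibitors, Timp3 (0.50 ± 0.14, adjusted p = 0.0543) and Timp2 (0.24 ± 0.09, adjusted p = 0.121), did not pass the limma test.

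Mmp13, the main interstitial collagenase of rodents, had a pattern close to that of Timp1 but lay under the filter, and it is named here after its values were seen. It was 5.43 in high C mock, 4.47 in high C Wy, 5.68 in high MF mock and 4.67 in high MF Wy. In the other 12 livers it ran from 3.58 to 4.15, so that the filter level of 4.32 was passed on 4 arrays, those of the heavy C and MF mice, and on no other. As it was chosen for this pattern and the low livers lay under the filter level, no fold or test is given. In both diets the high Wy liver was below the high mock liver. The tested MMPs, the gelatinase Mmp2 (0.35 ± 0.10, adjusted p = 0.0648) and the membrane-type protease Mmp14 (0.08 ± 0.09, adjusted p = 0.670), did not pass the limma test for body weight.

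Promoter sequence is shown for Timp1, Mmp13 and the fibrillar collagen genes Col1a2 and Col3a1. The heavy C and MF livers lay above all 12 others for Timp1, Mmp13 and Col1a2, but not for Col3a1. They did so for other members too, namely Col1a1, Col14a1, Col6a3, Loxl2 and Vim. The RefSeq promoter table (build GRCm38.p6) held 21 of the 34 members. Each sequence is the 250 bases before the annotated start on the plus strand, and capitals mark matches to 1 of 6 short motifs searched on both strands: the TATA box with the letters TATAAA, the CCAAT box with the letters CCAAT, an AP-1 element (TGANTCA), a TEAD element (CATTCC), a palindromic SMAD element (GTCTAGAC) and the GC box (GGGCGG). Timp1 lies at chrX:20869916-20870165, Mmp13 at chr9:7272264-7272513, Col1a2 at chr6:4505368-4505617 and Col3a1 at chr1:45311288-45311537.
Timp1: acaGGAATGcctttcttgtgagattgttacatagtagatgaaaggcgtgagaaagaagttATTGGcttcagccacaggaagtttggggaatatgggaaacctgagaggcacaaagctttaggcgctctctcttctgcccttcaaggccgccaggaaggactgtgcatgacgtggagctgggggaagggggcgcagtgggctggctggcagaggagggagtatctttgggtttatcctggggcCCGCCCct
Mmp13: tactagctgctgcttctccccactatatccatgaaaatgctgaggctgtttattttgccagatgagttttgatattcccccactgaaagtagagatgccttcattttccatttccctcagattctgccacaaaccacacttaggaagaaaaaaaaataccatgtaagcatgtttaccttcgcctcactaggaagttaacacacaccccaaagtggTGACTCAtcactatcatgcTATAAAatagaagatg
Col1a2: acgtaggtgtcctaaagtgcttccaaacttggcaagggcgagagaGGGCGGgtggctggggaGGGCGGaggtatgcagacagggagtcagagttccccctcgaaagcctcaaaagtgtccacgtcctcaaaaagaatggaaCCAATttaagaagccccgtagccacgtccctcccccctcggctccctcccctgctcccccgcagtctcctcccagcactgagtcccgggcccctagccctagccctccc
Col3a1: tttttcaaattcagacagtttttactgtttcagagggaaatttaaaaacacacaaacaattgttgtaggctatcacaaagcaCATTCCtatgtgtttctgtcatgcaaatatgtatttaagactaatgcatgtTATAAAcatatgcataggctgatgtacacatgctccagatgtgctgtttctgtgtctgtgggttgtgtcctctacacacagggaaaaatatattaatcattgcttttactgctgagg
The Timp1 sequence held the TEAD letters on the reverse strand, a CCAAT box and a GC box. The Mmp13 sequence held an AP-1 match and a TATA box, Col1a2 a CCAAT box and 2 GC boxes, and Col3a1 a TEAD match and a TATA box. The TEAD letters stood in 4 of the 21 member promoters (Acta2, Col3a1, Col6a2 and Timp1) and in 12.6% of 27025 promoters of the same length. AP-1 matches stood in 2 (Col6a1 and Mmp13), against 6.87%, CCAAT boxes in 9, against 34.5%, TATA boxes in 4, against 13%, GC boxes in 11, against 32.9%, and the SMAD letters in none, against 0.174%. A match describes the letters in these windows and shows no binding.

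Among the fibrillar collagens, the main fibres of scar tissue, 3 of 5 tested genes were higher in the heavy mice of C and MF, with a median change of 0.53. Col1a1, a chain of type I collagen, was 6.60 in high C mock, 6.58 in high C Wy, 6.96 in high MF mock and 6.86 in high MF Wy, against 6.25, 6.21, 6.12 and 6.23 in the low body weight livers in the same order. The groups did not overlap, and the change was 0.55 ± 0.07 (limma adjusted p = 0.00198, n = 4 against 4). Col1a2, the partner chain, changed by 0.64 ± 0.11 (limma adjusted p = 0.0107) and did not overlap either. Col3a1 changed by 0.53 ± 0.13 (limma adjusted p = 0.0296), but high C Wy (6.30) was below low C mock (6.33), and with the diet and treatment group as a block the limma adjusted p was 0.0573. The type V chains Col5a2 (0.21 ± 0.09) and Col5a1 (0.09 ± 0.06), which nucleate fibrils, did not pass the test.

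Of the other collagens, Col14a1, which binds to the surface of type I fibrils, was 9.27 in high C mock, 9.12 in high C Wy, 9.41 in high MF mock and 9.28 in high MF Wy, against 8.83 to 8.93 in the 4 low livers. Its change was 0.37 ± 0.06 (limma adjusted p = 0.00618). In type VI collagen, a beaded filament around cells, Col6a3 was called (0.53 ± 0.11, limma adjusted p = 0.0178), whereas Col6a2 (0.35 ± 0.11, adjusted p = 0.0780) and Col6a1 (0.29 ± 0.09, adjusted p = 0.0710) had limma adjusted p-values above the threshold. The basement membrane chains Col4a1 (0.39 ± 0.14) and Col4a2 (0.27 ± 0.09) were above 0 and not called.

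Dpt encodes dermatopontin, which binds collagen and decorin. It was 7.50 in high C mock, 7.26 in high C Wy, 8.13 in high MF mock and 7.80 in high MF Wy, and in the low body weight livers 7.47 in C mock, 6.79 in C Wy, 6.94 in MF mock and 6.65 in MF Wy. High C Wy overlapped low C mock, so the separation was that of the MF mice: high exceeded low by 1.19 in MF mock and 1.15 in MF Wy, by 0.47 in C Wy and by 0.03 in C mock. The fitted change was 0.71 ± 0.10 (limma adjusted p = 0.00386). The proteoglycans Lum (0.37 ± 0.12, adjusted p = 0.0811) and Dcn (0.23 ± 0.06, adjusted p = 0.0570) did not pass the limma test.

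Both cross-linking enzymes that passed the filter were called. Loxl2 was 5.69 in high C mock, 5.63 in high C Wy, 6.13 in high MF mock and 5.82 in high MF Wy, against 5.11 to 5.41 in the 4 low livers, a change of 0.55 ± 0.09 (limma adjusted p = 0.00812). Loxl1, which acts on elastic fibres, changed by 0.36 ± 0.07 (limma adjusted p = 0.0126). Lox itself lay between 3.40 and 3.95 on all 16 arrays, under the filter level.

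Of 4 tested glycoproteins, Thbs1, which can release TGF-beta from its latent form, was 5.71 in high C mock, 5.70 in high C Wy, 6.12 in high MF mock and 5.96 in high MF Wy, against 5.13 to 5.40 in the low livers (0.56 ± 0.10, limma adjusted p = 0.0115). Sparc, a collagen-binding matricellular protein, changed by 0.52 ± 0.11 (limma adjusted p = 0.0197), and Thbs2 by 0.33 ± 0.12 without a call. Fn1, fibronectin, which hepatocytes secrete into plasma in large amounts, stayed between 12.41 and 12.74 on all arrays. Vim, an intermediate filament of mesenchymal and immune cells, changed by 0.58 ± 0.11 (limma adjusted p = 0.0129), while Acta2, the smooth muscle actin of myofibroblasts, changed by 0.33 ± 0.12 (limma adjusted p = 0.121). Among the signalling genes Ccn2 (0.48 ± 0.14, adjusted p = 0.0581), Tgfb1 (0.22 ± 0.11) and Tgfbr1 were not called by limma.

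**Figure D2:**
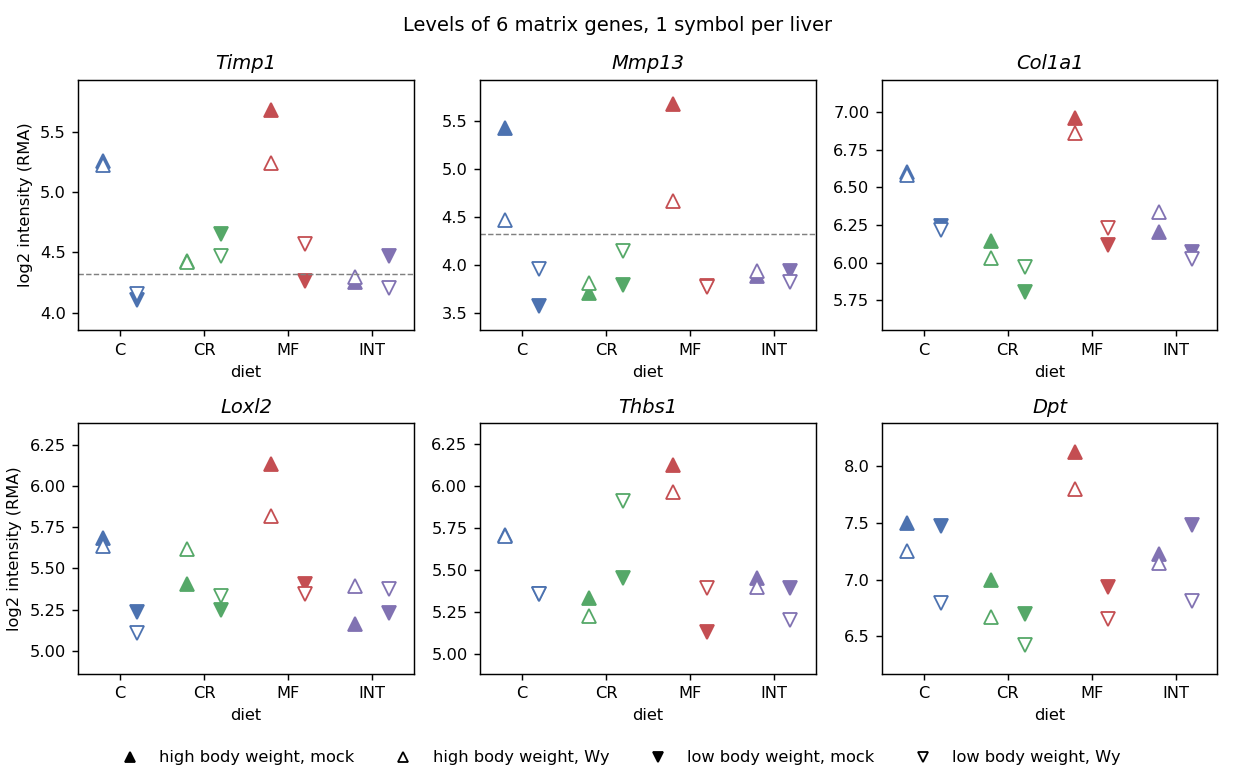
Log2 intensity of Timp1, Mmp13, Col1a1, Loxl2, Thbs1 and Dpt by diet, 1 symbol per liver, with upward triangles for high and downward ones for low body weight, filled for mock and open for Wy, and a dashed line at the filter level of 4.32 where it falls in the panel. In C and MF the upward triangles stand above the downward ones for every gene but Dpt, where high C Wy (7.26) is below low C mock (7.47).

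In 11 of the 30 members all 4 high livers lay above all 4 low livers of C and MF (Col14a1, Col1a1, Col1a2, Col6a3, Loxl1, Loxl2, Sparc, Tgfb1, Thbs1, Timp1 and Vim), and in none was it the reverse. Over all tested genes the share above was 6.47%. The 12 members called by limma fell to 5 without the low MF mock array and to 6 without high MF mock or low C Wy. Without both high MF arrays the contrast is high against low body weight in C alone. Only Timp1 stayed called among the 12 there (1.11 ± 0.12, limma adjusted p = 0.0132). The other 11 stayed above 0 there, from 0.24 ± 0.10 (Loxl1) and 0.25 ± 0.14 (Dpt) to 0.48 ± 0.16 (Vim) and 0.49 ± 0.11 (Loxl2), with limma adjusted p-values from 0.0786 to 0.558. Without both high C arrays the contrast is that of MF alone, and the count was also 12 but not over the same genes. Vim and Col3a1 each had a limma adjusted p of 0.0556 there. Within mock mice alone 3 were called, with Timp1 at 1.29 ± 0.12 (limma adjusted p = 0.00767), and within Wy mice none, with Timp1 at 0.87 ± 0.12 (limma adjusted p = 0.0997).

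In CR and INT, high against low body weight gave no difference that passed the test. The study reports widely varying body weights in C and MF but little variation within CR and INT. The classes thus stand for unlike weight gaps in the diet pairs. None of the 30 members and 0% of all genes were called at high against low body weight, 15 members were above and 15 below 0, and the median was -0.00. The 3 smallest p-values were those of Col1a1 (0.21 ± 0.07), Col6a1 (0.18 ± 0.09) and Col6a3 (0.19 ± 0.11), all with a limma adjusted p of 0.968, and 1 member, Col1a1, had an unadjusted p under 0.05 against 4.76% of all genes. Timp1 was 4.26 to 4.43 in the high and 4.21 to 4.65 in the low livers of CR and INT, and its change was -0.10 ± 0.10. In INT both high livers carry the other array code prefix, so class and prefix cannot be told apart there, and within CR high minus low Timp1 was -0.22 in mock and -0.06 in Wy.

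The difference of the body weight effect between the diet pairs was tested directly, although diet and the size of the weight gap cannot be told apart in it. It was called for Timp1 alone among the members (1.18 ± 0.15, limma adjusted p = 0.0156), where 0.855% of all genes were called, 0.757% as higher. Thbs1 (0.70 ± 0.14, adjusted p = 0.0528) and Loxl1 (0.43 ± 0.10, adjusted p = 0.0626) followed in the limma ranking without a call. For the other 11 members called in C and MF, a difference from CR and INT was thus not shown, although 29 of 30 members were above 0 in this contrast with a median of 0.34. The Timp1 difference had a limma adjusted p of 0.0620 with the 8 diet and treatment groups as blocks, and its value was 1.50 within mock mice (adjusted p = 0.0461) and 0.85 within Wy mice (adjusted p = 0.764). It had a limma adjusted p of 0.0638 without the high CR mock array and 0.0588 without the low C mock array. Its size is uncertain as well, since Timp1 in low C mock, low C Wy and low MF mock lay under the filter level. Over all 4 diets, high against low body weight called no member and no gene (0%), with 16 members at an unadjusted p under 0.05 against 14.0% of genes. The smallest p-values there were those of Col1a1, Col14a1 and Col6a1, and Col1a1 was higher in the heavier mouse in 8 of 8 matched comparisons.

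**Figure D3:**
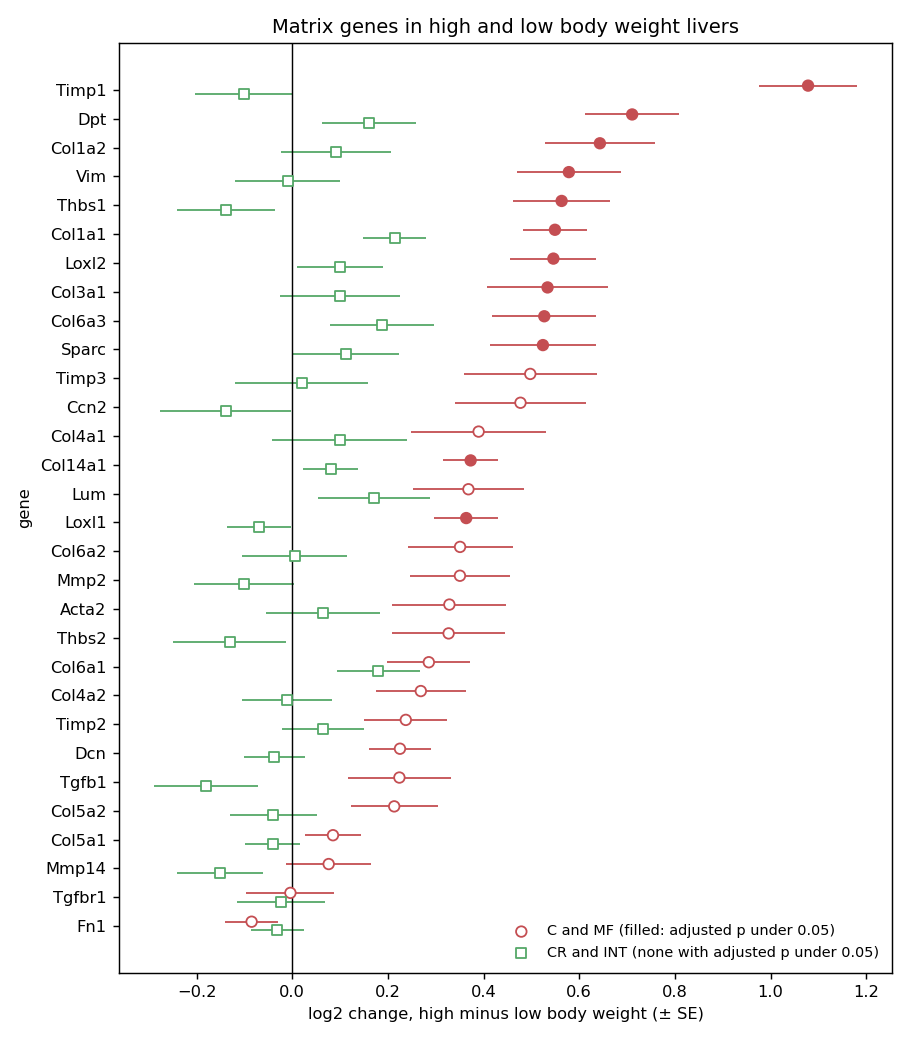
Log2 change of the 30 tested members between high and low body weight livers, with its standard error, for C and MF (red circles, filled where called) and for CR and INT (green squares, none called). The red circles lie to the right of 0 for 28 genes with Timp1 farthest out at 1.08, and the green squares lie on both sides of 0.

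Some markers of other cells moved with the same livers. Of all tested genes 7.39% were called between the high and low body weight mice of C and MF. Of 8 monocyte-derived macrophage genes, all tested, 6 were higher in the heavy C and MF mice, namely Ccr2 (1.07 ± 0.11), Itgax (1.23 ± 0.19), Trem2 (0.88 ± 0.14), Gpnmb (2.22 ± 0.38), Lgals3 and Cd68, and the summed level of the list was 9.99 to 10.67 log2 in the high against 9.42 to 9.67 in the low livers of C and MF. No defining marker of that list was under the filter. Of 8 tested stellate cell genes none was called, but the summed levels did not overlap (11.47 to 11.58 against 11.28 to 11.43). Of the portal fibroblast and mesothelium list 2 of 8 were higher (Cd34 and Entpd2; summed 8.52 to 8.82 against 8.23 to 8.61), and of the endothelial list 2 of 9 (Lyve1 and Pecam1; 12.81 to 12.98 against 12.74 to 12.80). Smooth muscle (0 of 5 called), cholangiocyte (0 of 5), T and B cell (0 of 4) and adipocyte genes (0 of 3) did not pass the test, with Ms4a1, Adipoq and Lep under the filter. In the Kupffer cell list Timd4 was lower (1 of 6), and in the hepatocyte list Cps1 (1 of 5). The lipid droplet gene Cidea, of the study's own panel, was 3.44 ± 0.39 higher. The part of these cells in the matrix result was not tested.

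**Figure D4:**
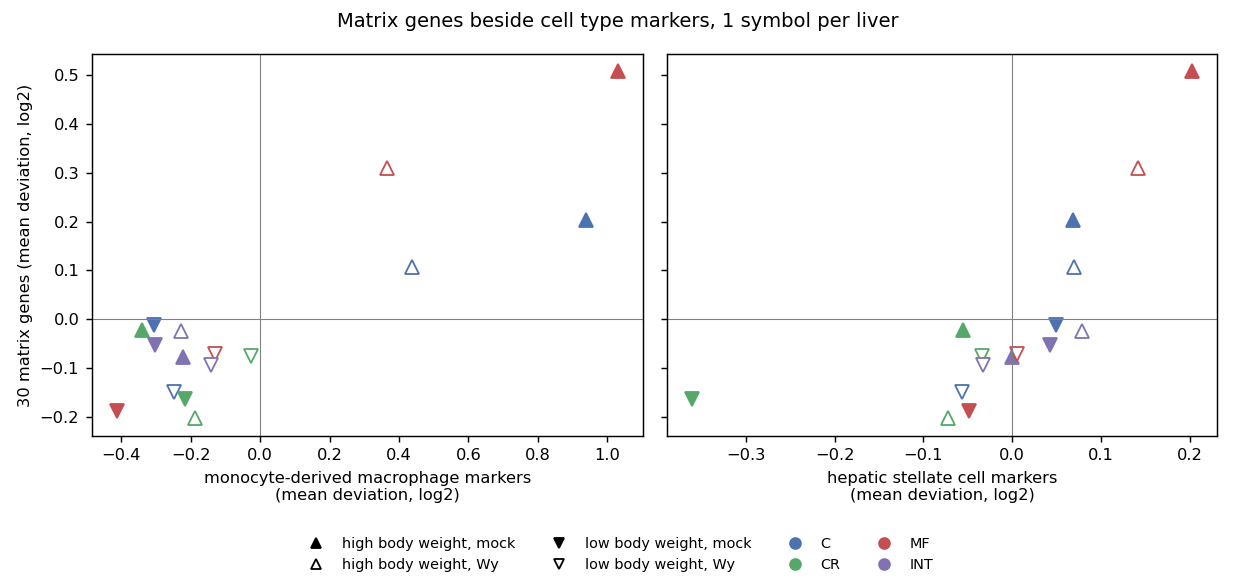
Mean deviation of the 30 tested members (vertical axis, log2) beside that of 8 monocyte-derived macrophage genes (left) and 8 hepatic stellate cell genes (right), 1 symbol per liver, coloured by diet, upward for high body weight and filled for mock. The 4 heavy C and MF livers stand apart at the upper right for the macrophage genes (0.36 to 1.03). The stellate deviations of those 4 livers (0.07 to 0.20) overlap those of the others, with high INT Wy at 0.08.

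Other matrix genes were read from 9 lists with 114 genes, 97 of which were tested. In the heavy C and MF mice 14 of the 97 were higher and 2 lower, against 7.39% called over all genes, and their median change was 0.08. The lower genes were the laminin chain Lama3 (-0.58 ± 0.12) and the membrane-anchored MMP inhibitor Reck (-0.58 ± 0.15). Matn2, a matrilin of filamentous networks (0.78 ± 0.11, limma adjusted p = 0.00498), Tgm2, a transglutaminase that cross-links matrix proteins (0.71 ± 0.12, adjusted p = 0.00778), and Axl, a receptor tyrosine kinase listed as a YAP target (0.61 ± 0.10, adjusted p = 0.00910), had the smallest p-values. Counts per list were 3 of 15 other glycoproteins, 3 of 15 TGF-beta and PDGF genes, 2 of 11 laminins and basement membrane genes (with 1 lower), 2 of 12 collagen processing genes, 2 of 10 proteases and inhibitors (with 1 lower), 1 of 4 proteoglycans, 1 of 4 YAP targets, and none of 15 other collagens or of 11 elastic fibre genes. In CR and INT none of the 97 was called. The difference of the effects was called for Axl (0.85 ± 0.15, limma adjusted p = 0.0378) and Matn2 (0.80 ± 0.16, adjusted p = 0.0490).

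Calorie restriction against the control diet gave 1 member higher and 3 lower of 30, where 10.5% of all genes were called, 4.54% as higher and 5.98% as lower. The member counts were near these shares. Ccn2 was higher in CR, and Mmp2, Col1a1 and Col14a1 were lower. In all, 28 of 30 members were below 0, with a median of -0.14 against -0.01 over all genes. The members called as lower changed in the same direction in 4 of 4 matched comparisons of treatment and body weight class, and Ccn2 rose in 4 of 4. The uncalled Col4a1, Col6a3, Dpt, Lum and Timp2 were lower in 4 of 4 as well. These comparisons use the arrays of the fit and are no separate support for the calls.

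Ccn2, formerly Ctgf, encodes a secreted matricellular protein that is a target of both TGF-beta and YAP. Its level was 9.16 in high CR mock, 8.75 in high CR Wy, 9.32 in low CR mock and 9.28 in low CR Wy. In C it was 8.55 in high mock, 8.41 in high Wy, 8.25 in low mock and 8.32 in low Wy, and in INT 8.16, 8.41, 8.27 and 8.18 in the same order. All 4 CR livers lay above all C and INT livers, and 5.70% of all genes had CR above C in this way. MF was wider, at 8.76, 8.97, 7.78 and 8.44, and both high MF livers lay above the lowest CR liver (8.75). Diet means were 9.13 ± 0.26 (SD, n = 4) in CR, 8.49 ± 0.52 in MF, 8.39 ± 0.13 in C and 8.26 ± 0.11 in INT, and the neighbours MF, C and INT were not called apart. Ccn2 was 1.67-fold higher in CR than in C (0.74 ± 0.19, limma adjusted p = 0.0274), 1.56-fold higher than in MF (0.64 ± 0.19, adjusted p = 0.0462) and 1.83-fold higher than in INT (INT minus CR -0.87 ± 0.19, adjusted p = 0.0126). The CR minus MF call was lost in 24 of 29 alternatives, among them the fit with blocks of treatment and class (limma adjusted p = 0.0554) and 14 of 16 fits that left out 1 array, and without low MF mock the change was 0.40 ± 0.15. The CR minus C call was lost in 7 of those 16 fits.

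Mmp2 moved the other way. It was 6.10 in high CR mock, 6.05 in high CR Wy, 5.98 in low CR mock and 6.07 in low CR Wy, and in C 6.81 in high mock, 6.60 in high Wy, 7.04 in low mock and 6.41 in low Wy. The 4 CR livers ran from 5.98 to 6.10, below all livers of the other diets, the lowest of which was 6.11 in high INT Wy. The change from C was -0.67 ± 0.17 (limma adjusted p = 0.0221) and from MF -0.85 ± 0.17 (adjusted p = 0.00581), and INT minus CR was 0.38 ± 0.17 (adjusted p = 0.180).

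Col1a1 was 6.15 in high CR mock, 6.03 in high CR Wy, 5.80 in low CR mock and 5.97 in low CR Wy, all below the 4 C livers (6.21 to 6.60), as were 7.33% of all genes, with CR minus C at -0.42 ± 0.10 (limma adjusted p = 0.0178). Col14a1 was 8.85, 8.63, 8.68 and 8.66 in the CR livers in that order. The C livers (8.83 to 9.27) overlapped it at high CR mock, while MF (8.91 to 9.41) and INT (8.94 to 9.11) did not. Its CR minus C change was -0.33 ± 0.08 (limma adjusted p = 0.0164). The CR minus C count of 4 fell to 1 without high C mock, high CR Wy or low C mock and to 2 without high CR mock or low CR mock, and rose to 8 without low MF mock. Within mock mice, and within Wy mice, no member was called between CR and C.

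**Figure D5:**
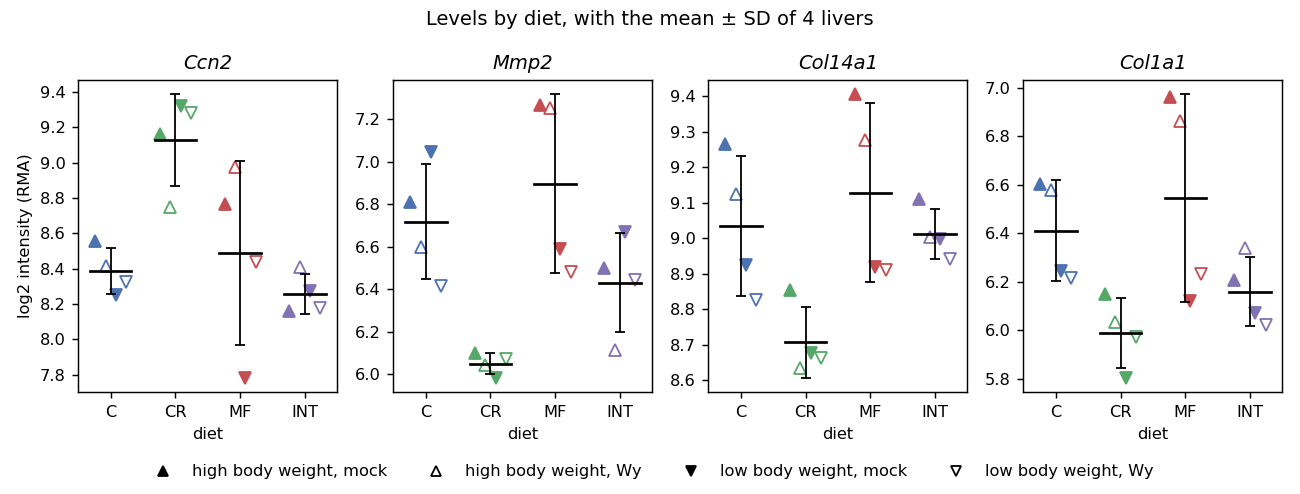
Log2 intensity of Ccn2, Mmp2, Col14a1 and Col1a1 by diet, 1 symbol per liver (upward for high and downward for low body weight, filled for mock and open for Wy), with the mean and SD of 4 livers in black. The CR livers are the highest group for Ccn2 (9.13 ± 0.26) and the lowest for the other genes, with little spread for Mmp2 (6.05 ± 0.05).

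Against MF, CR livers had 8 members lower and 1 higher, where 12.7% of all genes were called, 5.79% as higher and 6.87% as lower. The 8 were Col1a1 (-0.56 ± 0.10), Col14a1 (-0.42 ± 0.08), Mmp2, Col6a1 (-0.38 ± 0.09), Dpt (-0.68 ± 0.19), Col1a2 (-0.57 ± 0.16), Col6a3 (-0.47 ± 0.14) and Timp2 (-0.33 ± 0.10), with limma adjusted p-values from 0.00362 to 0.0423, and each was lower in 4 of 4 matched comparisons. The uncalled Loxl2, Lum and Thbs2 were lower in 4 of 4 as well. With blocks of treatment and class Timp2 had a limma adjusted p of 0.0510. The count of 9 fell to 4 without high MF mock or high CR mock and to 5 without high MF Wy or high CR Wy. Of the 8, Col14a1 and Mmp2 had no overlap between CR and MF (5.83% of all genes had CR below MF in this way, and 5.08% above). In the comparison of the ad libitum diets no member was called: MF minus C called 0% of genes, had 1 member at an unadjusted p under 0.05 (4.40% of all genes), and had Col6a1 (0.26 ± 0.09), Loxl2 (0.26 ± 0.12) and Fn1 (0.11 ± 0.07) with the smallest p, each at a limma adjusted p of 1.00.

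The intermittent diet was compared with each of the others. INT minus CR called Ccn2 as lower (above) and Col14a1 as higher (0.31 ± 0.08, limma adjusted p = 0.0235), where 9.85% of all genes were called, 5.57% as higher and 4.28% as lower. The member counts were near these shares. Timp2 (0.28 ± 0.10, adjusted p = 0.0926) followed in the limma ranking. All 4 INT livers exceeded all CR livers for Col14a1, Mmp2 and Timp2 (5.50% of all genes did so), and lay below them for Ccn2 (4.85%). Since the high INT arrays carry their own code prefix, both calls were refitted without them, when Ccn2 stood at -0.80 (limma adjusted p = 0.153) and Col14a1 at 0.40 (adjusted p = 0.0553). Of these 2 calls 1 was left without high CR mock, high CR Wy, low INT mock or low INT Wy. INT minus MF called no member and 0% of genes, with 29 of 30 members below 0, 6 at an unadjusted p under 0.05 (11.4% of all genes), and Col1a1 (-0.39 ± 0.10), Loxl2 (-0.39 ± 0.12) and Mmp2 (-0.47 ± 0.17) first by p (limma adjusted p from 0.352 to 0.382). INT minus C called no member and 0.00701% of genes, with 1 member at an unadjusted p under 0.05 (9.84% of all genes) and Col1a1 (-0.25 ± 0.10), Sparc (-0.23 ± 0.13) and Mmp2 (-0.29 ± 0.17) first (limma adjusted p from 0.459 to 0.608). The diet contrasts share their arrays with one another and with the body weight contrasts, so they are no separate samples of a pattern.

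Some cell type markers differed between CR and the ad libitum diets too. Of all tested genes 10.5% were called in CR minus C and 12.7% in CR minus MF. Pdgfrb, a receptor of stellate cells, was lower in CR than in C (-0.41 ± 0.12) and than in MF (-0.48 ± 0.12), the only called gene of 8 stellate markers against C and 1 of 3 called against MF, with Hand2 and Cygb. The summed stellate level was 11.01 to 11.46 in CR, 11.28 to 11.50 in C and 11.32 to 11.58 in MF. None of the 8 macrophage genes was called between CR and C. The summed hepatocyte level in CR (15.49 to 15.64) lay above all livers of C (15.25 to 15.48), MF (15.33 to 15.46) and INT (15.31 to 15.46), with Tat called as higher than in C and in MF and Cps1 as higher than in MF. The summed adipocyte list in CR (12.23 to 12.89) lay below C (12.97 to 13.12), MF (12.99 to 13.12) and INT (13.01 to 13.12). Car3 of that list, which hepatocytes also express, was called as lower, and Adipoq and Lep were under the filter. The mean deviation of the tested adipocyte genes did not separate the diets, at -0.31 to 0.05 in CR and -0.04 to 0.10 in C. The T and B cell list in CR (7.18 to 7.61) lay below MF (7.77 to 8.06), with Cd79b lower than in C and Cd79a lower than in MF. Entpd2 of the portal fibroblast list was lower in CR than in C. Against MF, Cd34 of that list and the endothelial gene Lyve1 were lower in CR, and the endothelial gene Kdr was higher. The part of these cells in the diet results was not tested.

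In the other matrix lists CR minus C called 4 genes of 97 as higher and 4 as lower, where 10.5% of all genes were called. First by p were P4ha1, a collagen prolyl hydroxylase (0.50 ± 0.09, limma adjusted p = 0.00372), Lamb3, a laminin chain (-0.96 ± 0.18, adjusted p = 0.00491), and Pdgfa, a stellate cell mitogen (-0.41 ± 0.08, adjusted p = 0.00719). CR minus MF called 4 as higher and 9 as lower, against 12.7% of all genes, led by Pdgfa (-0.46 ± 0.08), Lamb3 (-0.93 ± 0.18) and Tgm2 (-0.86 ± 0.18). INT minus CR called 4 as higher and 5 as lower, against 9.85% of all genes, led by Lamb3 (0.97 ± 0.18), Lama3 (0.75 ± 0.17) and Bmp1, which trims procollagen (0.35 ± 0.08). The counts in these diet contrasts were near the shares over all genes. None of the 4 tested YAP target genes was called in CR minus C, where all 4 were below 0 (median -0.24) while Ccn2, itself such a target, was higher. The cause of the Ccn2 difference, and any part of YAP in it, was not tested.

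The PPARα agonist changed few of the members. Of the 30, 1 was lower in Wy than in mock livers and none higher, where 28.3% of all genes were called, 12.3% as higher and 16% as lower. That gene was Dpt, which ran from 6.70 to 8.13 in the 8 mock livers and from 6.42 to 7.80 in the 8 Wy livers. The groups overlapped, yet Dpt was lower in the Wy mouse of 8 of 8 weight-matched pairs, by 0.08 in high INT to 0.68 in low C, and the mean change was -0.36 ± 0.07 (limma adjusted p = 0.00231). Mmp2 (-0.19 ± 0.07, adjusted p = 0.0733) and Lum (-0.22 ± 0.08, adjusted p = 0.0756) came next by limma and were not called, and 20 of 30 members were below 0 with a median of -0.06. Col14a1 was lower in 8 of 8 pairs as well, at -0.10 ± 0.04 (limma adjusted p = 0.102). Without the pair in the model Dpt had a limma adjusted p of 0.0589.

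The response to Wy was also compared between body weight classes and between diets. At high minus low body weight no member and 0% of genes were called, and 2 members had an unadjusted p under 0.05 against 4.71% of genes: Timp3 (-0.54 ± 0.12) and Acta2 (-0.39 ± 0.13), with limma adjusted p-values of 0.982 and 1.00, followed by Col6a2 (-0.27 ± 0.14). Timp3 was lower in the Wy mouse of all 4 high pairs (by 0.12 to 0.36) and higher in that of all 4 low pairs (by 0.04 to 0.54). Across diets the moderated F test of the interaction called no member and 0% of genes, and 0 members had an unadjusted p under 0.05, against 4.69% of genes.

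Of the 97 other matrix genes 9 were higher and 14 lower with Wy, against the 28.3% of all genes. The 3 smallest p-values were those of rises: Lamb3 (2.31 ± 0.13, limma adjusted p = 1.01e-06), Spon2, a secreted spondin (2.17 ± 0.15), and Tgm2 (0.87 ± 0.08). Lamb3 was 5.57 to 6.67 in the mock and 7.37 to 9.10 in the Wy livers, without overlap. Of the stellate cell, macrophage, endothelial and smooth muscle lists no gene was called between Wy and mock.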

How the data were processed

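Liver RNA of 16 mice was hybridised by the authors to Affymetrix Mouse Gene 1.1 ST arrays, 1 mouse per array. Per the labels and the study's methods the deposited values are log2 intensities that the authors normalised by robust multichip averaging (RMA). The study's methods describe a separate set of arrays, of mock-treated mice only, with probe sets assigned to Entrez genes. The values used here are those of transcript clusters in mock and Wy mice. For the RMA software no version was found in the labels or methods. The table held 35556 transcript clusters, of which 21218 were annotated to 1 gene, 1881 to several and 12457 to none in the annotation used here, so 18820 genes were measured, and for a gene with several clusters that of the highest mean was kept. Genes with an intensity over 20 on at least 5 arrays were tested (14275) and the other 4545 were not.

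Fits over all tested genes used lmFit and eBayes of limma 3.58.1 (R 4.3.3), with two-sided moderated tests and Benjamini-Hochberg adjustment. Wy was compared with mock within the 8 body weight matched pairs, diets in a model of diet, treatment and body weight class, and body weight within C and MF, within CR and INT, and as the difference of both, in a model with a level for each of the 8 combinations of diet and class and treatment as a term. The pairing by weight within a diet is that of the labels. Within a pair, deviations from the means of the diet and treatment correlated at 0.531 in C, 0.564 in MF, 0.0839 in INT and -0.169 in CR. Each mouse is a separate animal, and the number of arrays limits the precision. Code prefix means the start of the array code in the labels.

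The 34 members and the other gene lists were chosen with earlier results of these data known. Named genes are the called members, else the 3 of smallest p, and the 3 of smallest p in the other matrix lists per comparison, and any other is described by its values. Alternatives were another filter, other cluster choices, centring of arrays, other models, single treatments and leaving out arrays. The scripts were tested on simulated data. Promoter sequence came from the RefSeq table.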

Additional observations from a re-analysis of the deposited data

Results flagged for a closer look

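Single livers stood apart within their group for 4 of the 49 groups examined. The groups held 4 livers each, except that of the 8 Wy minus mock pair differences of Dpt. Chance alone gives about 1 in 20 for a single group, and groups that share livers are not independent. Timp1 in the high MF mock liver was 5.68, against 5.26 in the nearest of the other high C and MF livers. Col6a3 in the same liver was 7.08, against 6.52 in the nearest. Thbs1 in the low MF mock liver was 5.13, below the next low C and MF liver at 5.36. Col14a1 in the low C Wy liver was 8.83, below the next at 8.91.

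The body weight effect on Timp1 differed between the diet pairs, by 1.18 log2 (C and MF minus CR and INT), where the weight gaps were unlike as well. Timp1 was under the filter level in low C mock, low C Wy and low MF mock, so the size of this difference is uncertain. Mmp13, which the tests left out for its low level, was at least 4.47 in the 4 high C and MF livers and at most 4.15 in the other 12.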

How the results depend on the processing

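For the 52 changes of named members, 1414 alternative values were computed: 1190 kept direction and side of the threshold, 213 kept direction and lost the call, 11 gained it and 0 turned sign. The 52 include changes that were not called in the main fit and could not lose a call. The totals thus understate how often the calls themselves were lost. Among the calls most often lost were Ccn2 in CR minus MF (24 of 29 alternatives), Timp2 in CR minus MF (19 of 29) and Col3a1 in C and MF (11 of 28). Causes were not tested.

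Counts of called members moved as follows. Without the replicate block (the matched pair), Wy minus mock fell from 1 to 0, and with the first array code prefix only it rose to 3. For the diet contrasts a fit without the replicate block, that is with treatment as the only term, gave 2 in CR minus C, 1 in INT minus CR and 2 in CR minus MF. Mock arrays only, Wy arrays only, and contrasts within mock or within Wy mice with the spread of all arrays gave 0 in CR minus C, INT minus CR and CR minus MF. INT minus CR had 0 with the first prefix only and 1 with the prefix as a term. In C and MF the count was 1 without both high MF arrays (a contrast within C alone), 3 within mock and 0 within Wy mice. The difference of body weight effects had 0 with an intensity over 50 (Timp1 then not tested), 2 with a trend and robust eBayes, 0 with the replicate block (the 8 diet and treatment groups; Timp1 adjusted p = 0.0620) and 0 within Wy mice. With the replicate block Col3a1 in C and MF, and Ccn2 and Timp2 in CR minus MF, also lost their call (adjusted p = 0.0573, 0.0554 and 0.0510), and no other named call changed.

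Leaving out 1 array gave 1 to 4 in Wy minus mock, 1 to 8 in CR minus C, 4 to 12 in CR minus MF, 1 to 3 in INT minus CR, 5 to 15 in C and MF and 0 to 3 in the difference, and 0 in every other comparison. Centring each array on its median moved the median of all genes by under 0.04 but the share of higher genes among all calls from 43.5% to 53.9% in Wy minus mock, 43.2% to 57.1% in CR minus C, 56.5% to 41.9% in INT minus CR, 45.7% to 56.2% in CR minus MF and, among few calls, 100% to 33.3% in INT minus C. The within-treatment contrasts and the fits without both high MF or both high C arrays were chosen after seeing the data. The model with a level for each diet and class leaves no residual degrees of freedom on mock or Wy arrays only, so body weight within a diet pair was not fitted on these (a smaller model was not run), and prefix terms could not be fitted where the pair or CR and INT weight classes hold them.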
